A study of Mus musculus with 6 samples.

Results

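The 10 genes described here make up the core of the major histocompatibility complex (MHC) class I pathway and were chosen by name: *B2m*, *H2-K1*, *H2-D1*, *Tap1*, *Tap2*, *Tapbp*, *Nlrc5*, *Psmb8*, *Psmb9* and *Psmb10*. All 10 were found among the 53858 genes of the deposited table, each in a single row. They were measured by RNA sequencing in 6 pools of spinal cord motor neurons from wild-type mice with a crushed sciatic nerve, collected on day 6. Every pool held 10 to 15 picked cells, and every cell carried DiO, a green carbocyanine dye given proximal to the crush on day 0 that marks injured motor neurons. The 3 double-labelled pools (DiO+/DiI+) also carried DiI, a red dye injected distally on day 2, and so held neurons whose axons had reached that site early. The 3 DiO-only pools (DiO+/DiI-) lacked the distal dye. Strain, sex, age and the number of animals are not stated in the labels, so p-values measure the spread between these pools, which may be technical. The comparison asks whether the class I pathway differs between early-arriving and other injured motor neurons.

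Class I molecules display peptides from inside the cell on its surface. The proteasome cuts proteins into peptides, the transporter TAP carries them into the endoplasmic reticulum, and the peptide-loading complex places them on a heavy chain paired with beta-2 microglobulin. Interferon induces most genes of the pathway, and the immunoproteasome subunits then replace their constitutive counterparts. Most neurons express little class I, motor neurons are known as an exception, and class I on axotomised motor neurons has been linked to the maintenance of their synapses.

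The data show an uneven pathway. Both injured groups had abundant RNA of the light chain *B2m*, the heavy chain *H2-D1*, the loading factor *Tapbp* and the proteasome subunit *Psmb10*. *H2-K1* and *Tap2* were low. *Tap1*, *Psmb8*, *Psmb9* and *Nlrc5* had between 15 and 36 counts each over all 6 libraries. No member passed the test between double-labelled and DiO-only pools, and in CPM the groups overlapped for every member except *Tapbp*.

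Sequences upstream of 4 members are shown because they include the most abundant pair, the low heavy chain and a gene with hardly any counts. They are the 250 bases before the start site in RefSeq on GRCm38.p6, the assembly also called mm10, 5′ to 3′ on the gene's strand. Capitals mark matches on either strand to ATTGG, the core of the Y box bound by NF-Y, or to the core of an interferon-stimulated response element, which is GAAA, any 2 bases and GAAA again. The windows are chr2:122147437-122147686 (plus strand) for *B2m*, chr17:35262844-35263093 (plus strand) for *H2-D1*, chr17:34000334-34000583 (minus strand) for *H2-K1* and chr17:34187306-34187555 (plus strand) for *Tap1*. RefSeq has another *H2-K1* window, chr17:34000348-34000597 (minus strand), which is not shown. It held 1 match, where the window shown held 2.
B2m: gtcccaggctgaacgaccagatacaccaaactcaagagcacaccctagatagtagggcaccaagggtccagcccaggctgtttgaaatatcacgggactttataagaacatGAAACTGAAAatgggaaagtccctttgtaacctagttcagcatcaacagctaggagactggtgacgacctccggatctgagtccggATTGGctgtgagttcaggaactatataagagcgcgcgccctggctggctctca
H2-D1: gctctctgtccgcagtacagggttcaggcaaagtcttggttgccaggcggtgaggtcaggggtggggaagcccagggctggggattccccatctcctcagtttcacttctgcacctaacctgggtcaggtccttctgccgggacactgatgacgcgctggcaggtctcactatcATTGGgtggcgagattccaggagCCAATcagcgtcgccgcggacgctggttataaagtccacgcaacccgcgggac
H2-K1: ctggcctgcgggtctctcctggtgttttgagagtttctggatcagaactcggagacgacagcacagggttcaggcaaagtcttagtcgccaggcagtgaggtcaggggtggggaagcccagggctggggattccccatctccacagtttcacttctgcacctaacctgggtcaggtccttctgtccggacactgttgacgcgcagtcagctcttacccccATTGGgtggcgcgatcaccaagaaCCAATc
Tap1: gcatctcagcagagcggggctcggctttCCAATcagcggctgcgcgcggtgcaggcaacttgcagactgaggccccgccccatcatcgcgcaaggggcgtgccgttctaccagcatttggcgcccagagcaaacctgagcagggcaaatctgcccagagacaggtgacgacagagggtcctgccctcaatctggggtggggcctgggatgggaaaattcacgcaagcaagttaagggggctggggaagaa
In these letters *B2m* holds GAAACTGAAA from position -139 and ATTGG from position -53, counted from -1 at the base before the start site. No match of the 2 motifs overlapped another. RefSeq had windows for 8 members, and ATTGG or its complement was in 6 of them, namely *B2m*, *H2-D1*, *H2-K1*, *Tap1*, *Tapbp* and *Psmb9*, against 33.8% of all 32851 windows of the same length. The interferon element core was in the window of *B2m* and in 2.98% of all windows. *Tap1* and *Psmb9* are read in opposite directions from RefSeq start sites with 225 bases between them. The Y box core of both windows is the same 5 bases (chromosome 17, 34187334 to 34187338). A match is a description of letters, not evidence of a bound factor.

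Levels between genes are compared in TPM, a unit that corrects counts for exon length and library size. *B2m* (ENSMUSG00000060802; chromosome 2, 122147686 to 122153083) had a mean of 484 TPM over the 6 libraries and ranked 186 among 53858 genes. *H2-D1* (ENSMUSG00000073411; chromosome 17, 35262730 to 35267499) followed with 345 TPM at rank 276. *Tapbp*, which encodes tapasin, and *Psmb10* were close to each other at 50.1 and 49.4 TPM. *H2-K1* averaged 6.77 TPM and *Tap2* 3.4 TPM. *Psmb8*, *Psmb9*, *Nlrc5* and *Tap1* averaged 0.703, 0.502, 0.365 and 0.278 TPM. Over the libraries *B2m* ran from 274 to 801 TPM and *H2-D1* from 170 to 478, *Tapbp* from 27.6 to 67.8 and *Psmb10* from 32.5 to 63.9, *H2-K1* from 1.82 to 20.5 and *Tap2* from 1.86 to 8.25. The ranges of the first, the second and the third of these pairs did not overlap each other, while the members within each pair did. The 4 lowest genes reached 3.01 TPM at most, which is inside the ranges of *H2-K1* and *Tap2*.

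**Figure D1:**
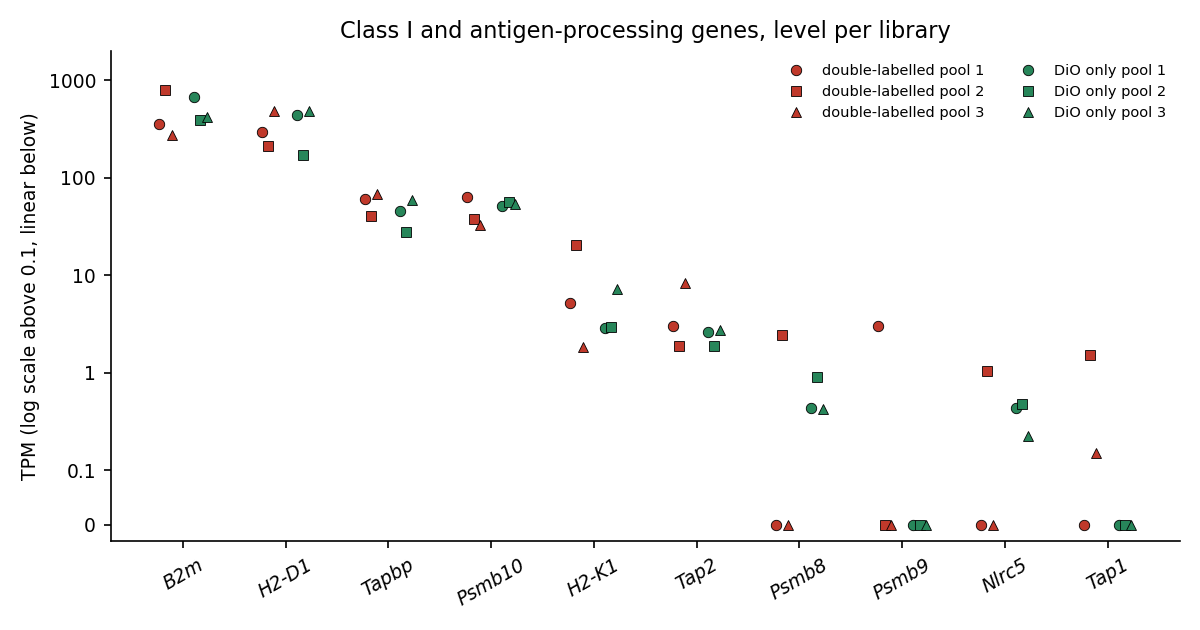
Level of each member in each library, in TPM on an axis that is logarithmic above 0.1 and linear below. Red points are the 3 double-labelled pools and green points the 3 DiO-only pools, with a marker shape for each pool number. *B2m* and *H2-D1* lie above 100 TPM in every library, and the 4 genes on the right lie at or near 0.

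Differences between groups are given in CPM, which scales libraries to each other with TMM factors and leaves gene length uncorrected. *B2m*, the gene of the light chain of class I molecules, had 159, 395 and 76.8 CPM in double-labelled pools 1, 2 and 3, against 230, 217 and 130 CPM in DiO-only pools 1, 2 and 3. The double-labelled pools held both the highest and the lowest value, so the groups overlapped. The group means were 210 ± 165 and 192 ± 54.5 CPM (SD, n = 3 each). The log2 fold change of double-labelled over DiO-only pools was 0.13 ± 0.51 (SE), with a 95% interval of -0.99 to 1.24 (edgeR quasi-likelihood test, Benjamini-Hochberg adjusted p over all genes = 0.987). It rested on double-labelled pool 2, without which the log2 fold change was -0.73 (edgeR adjusted p = 0.744).

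*H2-D1*, a classical heavy chain, varied least in CPM among the 6 members tested. It had 396, 312 and 402 CPM in double-labelled pools 1, 2 and 3, against 453, 286 and 446 CPM in DiO-only pools 1, 2 and 3. Its highest library exceeded its lowest by a factor of 1.58 in CPM, while in TPM it ran from 170 to 478, and the groups overlapped. The means were 370 ± 50.5 and 395 ± 94.3 CPM (SD, n = 3 each), with a log2 fold change of -0.09 ± 0.31 (SE; 95% interval -0.77 to 0.58; edgeR adjusted p = 0.987). It had the narrowest interval among the 6 members tested.

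*H2-K1* (ENSMUSG00000061232; chromosome 17, 33996017 to 34000347), the other classical heavy chain of the C57BL/6 reference, varied most in CPM among the 6 members tested. It had 8.01, 34.4 and 1.74 CPM in double-labelled pools 1, 2 and 3, against 3.36, 5.68 and 7.73 CPM in DiO-only pools 1, 2 and 3. Double-labelled pool 2 stood above all other libraries, double-labelled pool 3 stood below them, and the factor between these was 19.7. The log2 fold change was 1.38 ± 0.96 (SE; 95% interval -0.73 to 3.48; edgeR adjusted p = 0.952). It was -0.22 without double-labelled pool 2 (edgeR adjusted p = 0.981) and 1.90 without double-labelled pool 3 (unadjusted p = 0.0265, edgeR adjusted p = 0.495).

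Most heavy chain RNA was *H2-D1*. Among 17 *H2* class I heavy chain genes, *H2-D1* made up 82.6, 77 and 88.6% of the summed TPM in double-labelled pools 1, 2 and 3, against 89.4, 85.8 and 88.2% in DiO-only pools 1, 2 and 3. *H2-K1* made up 1.47, 7.46 and 0.337% in the double-labelled pools, against 0.581, 1.49 and 1.34% in the DiO-only pools. The ratio of *H2-D1* to *B2m* in TPM ranged from 0.264 to 1.75 with overlapping groups (two-sided exact permutation p = 0.8, adjusted p = 1 over 8 ratios; 3 against 3 cannot go below 0.1). Of the windows of 50 bases in the annotated transcripts, 12.8% of those of *H2-D1* and 9.63% of those of *H2-K1* also occur in another gene, most often *H2-Q1* for *H2-D1* and *H2-Q10* for *H2-K1*, which leaves such reads open to being split or dropped in counting. Class I genes also differ between mouse strains, and reads of another strain match the reference less well. The part of both in the low *H2-K1* values was not tested.

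The loading complex had 1 gene with separate groups. *Tapbp* (ENSMUSG00000024308; chromosome 17, 33915899 to 33929292), whose product tapasin bridges the heavy chain to TAP, had 115, 83.1 and 80.3 CPM in double-labelled pools 1, 2 and 3, against 65.9, 65.5 and 77.5 CPM in DiO-only pools 1, 2 and 3. All 3 double-labelled pools stood above the DiO-only pools, the closest values being 80.3 and 77.5 CPM, whereas in TPM the groups overlapped (40 to 67.8 and 27.6 to 59 TPM). The means were 92.8 ± 19.3 and 69.6 ± 6.81 CPM (SD, n = 3 each), and the difference did not pass the test (log2 fold change 0.41 ± 0.32, SE; 95% interval -0.28 to 1.11; edgeR adjusted p = 0.957). Groups were separate in this direction for 5.86% of the 12954 genes tested, which makes 1 of 6 members no result about the pathway. An antisense gene, *Gm19412*, shares 904 exon bases with *Tapbp*. It had 96, 44 and 50 counts in double-labelled pools 1, 2 and 3, against 144, 55 and 80 in DiO-only pools 1, 2 and 3. Without a stated strand setting, reads in the shared part cannot be assigned to either gene. *Zbtb22*, on the same strand as *Tapbp*, shares 149 exon bases with it and had 285 counts over all libraries.

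The peptide transporter is a pair of TAP1 and TAP2 chains. *Tap2* (ENSMUSG00000024339; chromosome 17, 34203527 to 34216321) had 29, 11 and 76 counts in double-labelled pools 1, 2 and 3, against 27, 14 and 22 counts in DiO-only pools 1, 2 and 3. These are 5.96, 4.03 and 10.2 CPM in double-labelled pools and 3.94, 4.68 and 3.78 CPM in DiO-only pools. The groups overlapped (log2 fold change 0.71 ± 0.87, SE; 95% interval -1.21 to 2.63; edgeR adjusted p = 0.978). *Tap1* (ENSMUSG00000037321; chromosome 17, 34187553 to 34197225) had 0, 13 and 2 counts in double-labelled pools 1, 2 and 3, against 0 counts in every DiO-only pool. Of 6 libraries 4 held no *Tap1* read, where a count of 0 allows up to 3 counts, or 0.201 to 0.28 TPM. The limit covers counting error only.

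*Nlrc5* (ENSMUSG00000074151; chromosome 8, 94434356 to 94527272) encodes the transactivator of class I genes. It had 0, 14 and 0 counts in double-labelled pools 1, 2 and 3, against 10, 8 and 4 counts in DiO-only pools 1, 2 and 3. Double-labelled pool 2 held more than any other library and the other double-labelled pools held none, so the groups overlapped. *Nlrc5*, *Tap1*, *Psmb8* and *Psmb9* had too few counts for the filter, which 6 of 10 members passed.

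The immunoproteasome subunits split in the same way. *Psmb10* (ENSMUSG00000031897; chromosome 8, 105935735 to 105938444), the inducible trypsin-like subunit, had 56.9, 36.6 and 18.1 CPM in double-labelled pools 1, 2 and 3, against 35.0, 63.1 and 33.3 CPM in DiO-only pools 1, 2 and 3. The groups overlapped, with means of 37.2 ± 19.4 and 43.8 ± 16.7 CPM (SD, n = 3 each) and a log2 fold change of -0.23 ± 0.47 (SE; 95% interval -1.28 to 0.81; edgeR adjusted p = 0.987). *Psmb8* (ENSMUSG00000024338; chromosome 17, 34197721 to 34201454), the inducible chymotrypsin-like subunit, had 0, 13 and 0 counts in double-labelled pools 1, 2 and 3, against 4, 6 and 3 counts in DiO-only pools 1, 2 and 3. *Gm20496*, antisense to it over 498 exon bases, had 1, 17 and 8 counts in the double-labelled pools, against 11, 5 and 1 in the DiO-only pools. *Psmb9* (ENSMUSG00000096727; chromosome 17, 34181987 to 34187764), the inducible subunit that replaces the caspase-like subunit, had 28 counts in double-labelled pool 1 and 0 in the other 5 libraries. The overlap of *Psmb9* with *Tap1* spans 212 exon bases in GENCODE M21, whose start sites for these genes differ from those of RefSeq. No library held counts of both genes.

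Set against their constitutive counterparts, *Psmb10* stood apart from the other inducible subunits. In TPM the ratio of *Psmb10* to *Psmb7* was 1.09, 0.812 and 0.219 in double-labelled pools 1, 2 and 3, against 0.494, 1.41 and 0.319 in DiO-only pools 1, 2 and 3. The groups overlapped in this ratio (two-sided exact permutation p = 0.9, adjusted p = 1 over 8 ratios). The ratio of *Psmb8* to *Psmb5* did not exceed 0.0114 in any library, and that of *Psmb9* to *Psmb6* did not exceed 0.00383. The constitutive subunits themselves were abundant. *Psmb5* averaged 215 ± 18.7 TPM in double-labelled pools and 339 ± 74.2 TPM in DiO-only pools (SD, n = 3 each), *Psmb6* 556 ± 203 and 634 ± 89.2 TPM, and *Psmb7* 84.5 ± 55.9 and 105 ± 64.6 TPM. In the edgeR fit on counts their log2 fold changes were -0.63 ± 0.34, -0.14 ± 0.39 and -0.29 ± 0.38 (SE), with adjusted p of 0.885, 0.987 and 0.978. *Psme1* and *Psme2*, the interferon-inducible activator caps, averaged 9.17 ± 2.38 and 32.1 ± 20.6 TPM in double-labelled pools and 11.4 ± 2.09 and 23.2 ± 3.82 TPM in DiO-only pools (SD, n = 3 each; edgeR adjusted p = 0.987 and 0.979).

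**Figure D2:**
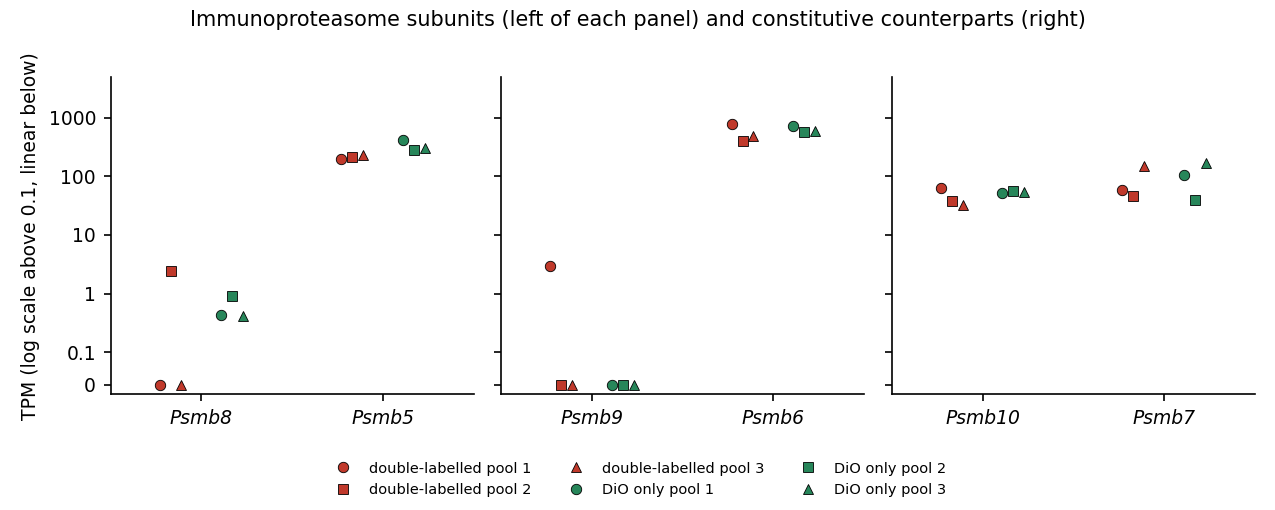
Each panel sets an inducible catalytic subunit (left) beside the constitutive subunit it can replace (right), in TPM per library on an axis that is logarithmic above 0.1 and linear below. Red points are double-labelled and green points DiO-only pools. *Psmb8* and *Psmb9* lie at or below 3.01 TPM in all libraries, while *Psmb10*, at 32.5 to 63.9 TPM, overlaps *Psmb7*, at 40.2 to 169 TPM.

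Over the 6 members tested, 4 were higher and 2 lower in double-labelled pools, with a median log2 fold change of 0.27 beside 0.02 over all 12954 genes tested. Without double-labelled pool 2 the members' median was -0.11. At an adjusted p under 0.05, 0 members and 0% of all genes were called in edgeR, with a smallest adjusted p of 0.308 over all genes. At an unadjusted p under 0.05 there were 0 members and 5.81% of all genes (3.18% upward and 2.63% downward), and DESeq2 at an adjusted p under 0.05 called 76 genes (0.587%) and 0 members. Except for *H2-D1*, the intervals of the tested members reach beyond a 2-fold change in at least 1 direction, so differences of that size are not excluded with 3 pools a group.

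**Figure D3:**
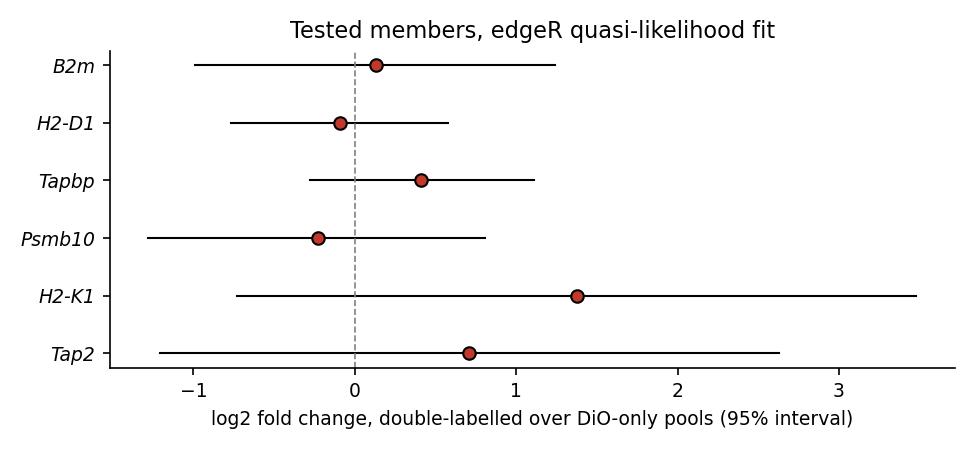
Log2 fold change of double-labelled over DiO-only pools for the 6 tested members (points) with 95% intervals from the edgeR fit (lines). Every interval crosses 0, and the narrowest is that of *H2-D1*, from -0.77 to 0.58.

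The other genes of the pathway came from lists chosen for their known roles. Of 106 such genes 57 were tested, 31 higher and 26 lower in double-labelled pools, 0 of them called. At an unadjusted p under 0.05 there were 3, *Tyk2* upward and *Ide* and *Ifi27* downward, beside 3.18% of all genes upward and 2.63% downward. None of the statements on single genes below passed the threshold after adjustment.

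Among 19 other class I and class I-like heavy chains 6 were tested, 5 higher and 1 lower. *H2-T22*, a nonclassical chain recognised by gamma delta T cells, had 38.4, 25.6 and 40.3 CPM in double-labelled pools 1, 2 and 3, against 28.9, 21.4 and 26.3 CPM in DiO-only pools 1, 2 and 3. *H2-T23*, which encodes the nonclassical molecule Qa-1, had 23, 11.3 and 14.2 CPM in double-labelled pools 1, 2 and 3, against 11.8, 12.4 and 4.30 CPM in DiO-only pools 1, 2 and 3. Both had overlapping groups (edgeR adjusted p = 0.970 and 0.961). *H2-Q1*, *H2-M10.1* and *H2-M10.4* had no counts in any library. These genes are close copies of each other and their counts are uncertain.

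The general chaperones of peptide loading were abundant, unlike *Tap1*. *Calr* and *Canx*, the lectin chaperones, averaged 119 ± 112 and 138 ± 38.1 TPM in double-labelled pools and 94.4 ± 30.9 and 94.4 ± 7.41 TPM in DiO-only pools (SD, n = 3 each). *Pdia3*, the disulfide isomerase of the loading complex, averaged 193 ± 119 TPM in double-labelled and 208 ± 100 TPM in DiO-only pools, and *Erap1*, which trims peptides, 13.9 ± 4.71 and 11.1 ± 2.03 TPM. Of the 12 genes of loading and trimming 6 were higher and 6 lower, with a median log2 fold change of -0.01. *Ide*, an insulin-degrading protease that can also trim peptides, had 42.5, 37.0 and 54.4 CPM in double-labelled pools 1, 2 and 3, against 65.8, 79.2 and 84.9 CPM in DiO-only pools 1, 2 and 3 (log2 fold change -0.78 ± 0.33, SE; edgeR adjusted p = 0.796). *Sec61a1*, a subunit of the translocation channel, and the bleomycin hydrolase gene *Blmh* also had lower, separate groups in CPM. Their log2 fold changes were -0.52 ± 0.34 and -0.78 ± 0.39 (SE; edgeR adjusted p = 0.942 and 0.880). In TPM the groups of *Ide*, *Sec61a1* and *Blmh* overlapped. Double-labelled pools had 8.6 to 22.2, 9.29 to 22.7 and 8.61 to 35.5 TPM of these genes, against 16.1 to 31.3, 15.1 to 24.1 and 18.2 to 43.2 TPM in DiO-only pools. Groups were separate downward for 7.07% of all genes tested.

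The receptors and kinases through which interferon induces the pathway were present in both groups. Of 16 genes 13 were tested, 8 higher and 5 lower. *Tyk2*, a kinase of the type I interferon receptor, had 27.5, 19.8 and 18.0 CPM in double-labelled pools 1, 2 and 3, against 7.59, 8.69 and 7.90 CPM in DiO-only pools 1, 2 and 3 (edgeR adjusted p = 0.720; log2 fold change 1.43, SE 0.52). The interferon gamma receptor genes had log2 fold changes of opposite sign, 0.80 ± 0.44 for *Ifngr1* and -0.83 ± 0.45 for *Ifngr2* (SE), and neither passed the test (edgeR adjusted p = 0.899 and 0.887). Their groups were separate in CPM but overlapped in TPM, at 16.0 to 57.2 TPM in double-labelled and 12.8 to 22.5 TPM in DiO-only pools for *Ifngr1*, and at 7.41 to 41.2 and 22.4 to 47.8 TPM for *Ifngr2*. *Irf1*, an inducer of class I genes, was under the filter with 0.616, 1.83 and 0.134 CPM in double-labelled pools 1, 2 and 3, against 4.96, 2.00 and 1.37 CPM in DiO-only pools 1, 2 and 3. Of the 10 factors of the class I promoter, 9 were tested, 5 higher and 4 lower, with a median log2 fold change of 0.10.

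Interferon-stimulated genes other than *Ifi27* were scarce. Only 4 of 24 were tested. *Ifi27* had 448, 413 and 324 CPM in double-labelled pools 1, 2 and 3, against 657, 815 and 483 CPM in DiO-only pools 1, 2 and 3, with lower, separate groups (edgeR adjusted p = 0.821; log2 fold change -0.72, SE 0.31). The other 23 summed to 15.2, 11 and 109 CPM in double-labelled pools 1, 2 and 3, against 14.2, 27.1 and 40.4 CPM in DiO-only pools 1, 2 and 3. Of 8 genes of the class II pathway 4 were tested, 3 higher and 1 lower. The invariant chain gene *Cd74* had no counts in any double-labelled pool, against 0, 0 and 0.687 CPM in DiO-only pools 1, 2 and 3. Of 9 genes of class I receptors and their signalling chains only *Cd247*, the zeta chain of the T cell receptor complex, was tested, with a log2 fold change of -2.39 ± 1.42 (SE; 0.921 as edgeR's adjusted p). *Pirb*, a class I receptor described on neurons, was seen only in DiO-only pool 2, at 0.334 CPM.

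Markers of cell types rich in class I were read in the same libraries. The labelled cell type was checked with 8 motor neuron markers, all tested, 4 higher and 4 lower, which summed to 3882 ± 908 CPM in double-labelled pools and 4371 ± 860 CPM in DiO-only pools (SD, n = 3 each) with overlap. *Chat*, which makes acetylcholine, averaged 111 ± 27.3 and 78.4 ± 21.5 CPM, and *Isl1*, a motor neuron transcription factor, 25.3 ± 8.93 and 31.9 ± 3.55 CPM (edgeR adjusted p = 0.950 and 0.978). Markers of microglia and macrophages (15 genes, 4 tested, 1 higher and 3 lower) summed to 51.8, 26.7 and 70.3 CPM in double-labelled pools 1, 2 and 3, against 62.4, 67.5 and 50.5 CPM in DiO-only pools 1, 2 and 3. Of the 15, 7 had a higher mean in double-labelled pools, among them *Cx3cr1* at 3.44 ± 5.96 CPM against 0.334 ± 0.579 CPM in DiO-only pools (SD, n = 3 each). The other 8 had a lower one, and 3 of those, *Ptprc*, *Itgam* and *Cd68*, were at 0 in all double-labelled pools. Endothelial and pericyte markers (14 genes, 5 tested, 2 higher and 3 lower) summed to 75.8, 95.5 and 100 CPM in double-labelled pools 1, 2 and 3, against 102, 110 and 133 CPM in DiO-only pools 1, 2 and 3, without overlap. Most of that sum was *Egfl7*, at 64.1 to 89.3 CPM in double-labelled and 75.8 to 89.4 CPM in DiO-only pools. Means were higher in double-labelled pools for 2 of the 14, *Rgs5* and *Tek*, and lower for 11. *Rgs5* had 6.99, 0 and 6.83 CPM in double-labelled pools 1, 2 and 3, against 0.292, 1.67 and 4.64 CPM in DiO-only pools 1, 2 and 3. *Cldn5* and *Cdh5* were at 0 in every double-labelled pool and each in 1 DiO-only pool. Of 11 lymphocyte markers, *Trac*, *Gzmb* and *Lck* were at 0 throughout, and the sum ran from 24.9 to 32.1 CPM in double-labelled and from 21.7 to 57.8 CPM in DiO-only pools. Most of it was *Trbc2*, a T cell receptor chain gene, with 31.0, 22 and 24.9 CPM in double-labelled pools 1, 2 and 3, against 26.6, 56.8 and 18.2 CPM in DiO-only pools 1, 2 and 3. In pools of cells, fewer cells of a type and less RNA per cell cannot be told apart.

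**Figure D4:**
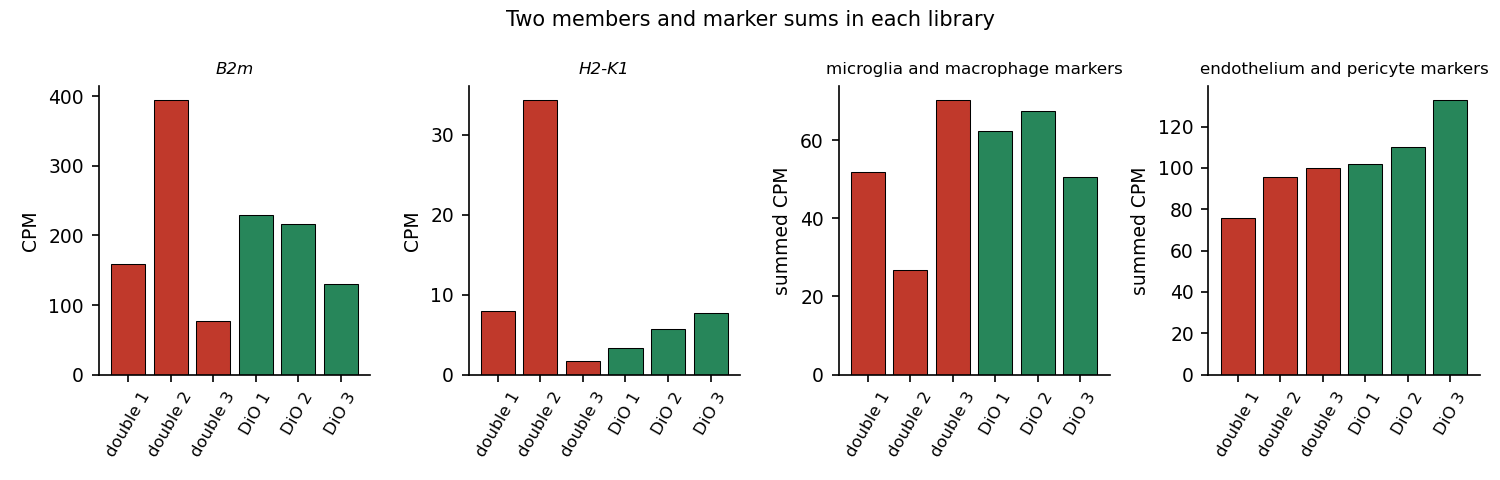
*B2m* and *H2-K1* in CPM, and the summed CPM of markers of microglia with macrophages and of endothelium with pericytes, as bars from 0 for each library. Red bars are the double-labelled pools (double 1 to 3) and green bars the DiO-only pools (DiO 1 to 3). Double-labelled pool 2 is highest in *B2m* and *H2-K1* (395 and 34.4 CPM) and lowest in the microglial sum (26.7 CPM).

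Double-labelled pool 2 was the highest of the 6 libraries for *B2m* and *H2-K1*. It was also the highest for *Tap1*, *Nlrc5* and *Psmb8*, which had only 13, 14 and 13 counts there. The share of all genes that were highest in this pool was not computed, so these 5 of the 10 members are no result about the pathway. The same pool also had the smallest total count, 2997714, where the largest was 6563403. Its share of mitochondrially encoded counts was the largest, 18%, against 3.96 to 10.8% in the other 5 libraries. The groups as a whole differed in further ways. Double-labelled pools had 15657 to 16467 genes with counts and DiO-only pools 17229 to 22118, and oligodendrocyte markers (12 genes, all tested and all higher) summed to 3127 ± 1746 CPM in double-labelled and 478 ± 166 CPM in DiO-only pools (SD, n = 3 each) without overlap. Their median log2 fold change was 2.50, with 10 of 12 at an unadjusted p under 0.05. Astrocyte markers (11 genes, 10 tested, 8 higher) summed to 1616 ± 650 CPM in double-labelled and 1060 ± 210 CPM in DiO-only pools, which overlapped, with a median log2 fold change of 2.49, 6 of the 10 tested at an unadjusted p under 0.05 and 5 with separate groups. Of both lists 0 genes were called, with a smallest adjusted p of 0.308. Markers of other neurons (8 genes, 2 tested, both lower) summed to 20.5 ± 7.90 CPM in double-labelled and 102 ± 27.4 CPM in DiO-only pools (SD, n = 3 each). A different gene made up most of the sum in each DiO-only pool. It was *Slc17a6* in pool 1 (62.6 of 70.5 CPM), *Sst* in pool 2 (105 of 115 CPM) and *Slc6a5* in pool 3 (92.4 of 121 CPM). The part of these differences in the members' values was not tested.

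The pattern of *B2m* over the 6 libraries was not shared across the pathway. On log2 CPM its Pearson correlation was 0.77 with *H2-K1*, 0.53 with *Psmb10*, -0.16 with *Tapbp*, -0.51 with *H2-D1* and -0.73 with *Tap2*, a description of 6 libraries that share their depth and scaling. The genes most alike among 6531 with a mean of at least 20 CPM were *Pstk*, *Sbno1*, *Praf2*, *Srrd* and *LTO1* (as the table spells it), with correlations of 0.95 to 0.99.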

How the data were processed

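Per the labels' protocols, cDNA was amplified for 20 PCR cycles (SMART-Seq HT), with no molecular identifiers named. The deposited values are raw read counts per Ensembl gene. Per the submitters' processing notes the authors used FastQC, HISAT2 and HTSeq with mm10; versions, annotation, strand setting and the treatment of multiply mapped reads are not stated there. The 6 files of single libraries held the same counts as the table. Total counts ran from 2997714 to 6563403, and 3 counts correspond to 0.402 to 1.1 CPM in a library. Libraries of a group were not copies of each other: chi-square per degree of freedom between any 2 was at least 28.2.

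All 53858 identifiers matched GENCODE M21 on GRCm38, which gave 1-based coordinates and union exon lengths for TPM. Counts were analysed in R 4.3.3. edgeR's filterByExpr kept 12954 genes with 99.2% of counts. After TMM scaling, edgeR 4.0.16 tested double-labelled against DiO-only pools (quasi-likelihood F-test with robust estimation, Benjamini-Hochberg adjusted over all tested genes, threshold 0.05). SEs were the log2 fold change over the root of F, and intervals from the t quantile of the fit. CPM uses the TMM factors. Ratios had exact permutation tests, two-sided. The fits were tested on simulated counts. Alternatives were DESeq2 1.42.0, voom in limma 3.58.1, other scalings and filters, thinning, a replicate block and leaving out each library. Figures used matplotlib 3.10.9. The members and lists were chosen with earlier results of these data known. Named genes were the members, up to 4 genes of smallest p or with separate groups per list, a fixed set of counterparts and the 5 genes most like *B2m*; not all chosen are printed, and the cell type markers named singly were named after their values were seen.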

Additional observations from a re-analysis of the deposited data

How the results depend on the processing

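Under 15 alternatives none of the 6 tested members was called, the lowest adjusted p being 0.495, for *H2-K1*. Of 90 fold changes, 83 kept their direction. *Tapbp* stayed between 0.22 and 0.50 and *Tap2* between 0.27 and 0.94 on the log2 scale. Leaving out a library in turn gave -0.73 to 0.52 for *B2m*, -0.22 to 1.90 for *H2-K1*, -0.28 to 0.01 for *H2-D1* and -0.70 to 0.12 for *Psmb10*. In these runs 1 to 4 tested members were lower, where the full set gave 2, and 0 to 1 had an unadjusted p under 0.05 (*H2-K1*, without double-labelled pool 3). The median log2 fold change was -0.11 without double-labelled pool 2 and 0.24 to 0.39 without any other library. Over all genes, edgeR called 79 without a filter on low counts, DESeq2 called 76, and edgeR with the replicate number as a block called 23, where the main count was 0; the cause was not tested. With that block *B2m* had a log2 fold change of -0.15. The labels do not say that numbers pair the pools. Same-numbered pools correlated in their deviations from the group means by 0.07, 0.23 and 0.20, and every pool correlated best with its own number. Whether unpaired pools would match in this way was not tested. Deviations from a mean of 3 pools also depend on each other, so these values do not show pairing. The labels speak of 3 batches without assigning libraries, so no within-batch value was computed. Without the filter *Tap1* and *Psmb9* had unadjusted p of 0.0414 and 0.0299 in edgeR, and adjusted p of 0.592 each. These values rested on 2 libraries and 1 library with counts. A fold change of 2 in *H2-K1* or *Tap2*, with 231 and 179 counts in all, is not excluded at this depth and spread.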

Other observations

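For the 23 interferon-stimulated genes other than *Ifi27*, the summed CPM was largest in double-labelled pool 3, at 109 CPM. Of these 23 genes, 7 had no counts there, and that library had the largest total count, 6563403. Double-labelled pool 2, where *B2m* and *H2-K1* were highest, had the smallest sum, 11 CPM. Of 21 list genes with counts, 11 were highest in double-labelled pool 3, among them *Ifit1*, *Ifit3*, *Rsad2*, *Bst2*, *Ifitm3* and *Usp18*, which were named after their values were seen. The share of all genes that were highest in that pool was not computed. *Bst2*, of the antiviral protein tetherin, had 0, 2.56 and 18.1 CPM in double-labelled pools 1, 2 and 3, against 0.438, 1.67 and 0.172 CPM in DiO-only pools 1, 2 and 3. *Rsad2*, of the antiviral protein viperin, had 0, 0 and 11.5 CPM in double-labelled pools 1, 2 and 3, against 0.875, 1.34 and 1.03 CPM in DiO-only pools 1, 2 and 3. In the same library *B2m* and *H2-K1* were at their lowest of the 6 libraries (76.8 and 1.74 CPM) and *Tap2* at its highest (10.2 CPM). The microglial and macrophage markers summed to 70.3 CPM there, beside 67.5 CPM in DiO-only pool 2. Of these 15 genes 4 peaked there (*Cx3cr1*, *Tmem119*, *P2ry12* and *C1qa*), 2 in double-labelled pool 1 and 9 in DiO-only pools, and *Ptprc*, *Itgam* and *Cd68* were at 0 there. The part of those cells in the interferon-stimulated values was not tested.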
